A study of Mus musculus with 12 samples.

Results

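Adding cAMP to the LIF medium of neurospheres derived from mouse embryonic fibroblasts was examined on 2 of the 12 arrays of the series, 1 array for each medium. Neurospheres are free-floating balls of cells grown to enrich neural stem and progenitor cells. The LIF array held neurospheres grown in the medium MHM with leukaemia inhibitory factor (LIF), and the LIF and cAMP array held neurospheres from the same kind of fibroblast with cyclic AMP added as well. The fibroblasts were C57BL/6, and the labels name no transgene, dose, duration or chemical form of cAMP, and leave unsaid both the method of conversion and whether the media were given to 1 culture. The other 10 arrays included adult skin fibroblasts, a pair of adult fibroblast-derived neurospheres (LIF, and EGF with cAMP) and embryonic ganglionic eminence (GE) neurospheres. The rest were iPS and ES cells with the primary and secondary neurospheres made from each. The labels name a separate line for the iPS cells and for the ES cells.

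Probe sets, the short oligonucleotide groups that each read out a transcript, were used where the signal reached 100 on at least 1 of the 2 arrays. This kept 11880 of 45101 probe sets, of which 10934 named a single gene, 915 named several or none and 31 were controls. They stood for 7393 of the 18193 genes measured, each read from its brightest passing probe set. Differences are given as log2(signal + 5) with LIF and cAMP minus that with LIF, so 1 is 2-fold. With 1 array a side there is no replicate spread and no test, and every difference below describes these 2 arrays. In bulk RNA, fewer cells of a type and less RNA per cell cannot be told apart.

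Cyclic AMP is a second messenger made by adenylyl cyclases. It frees the catalytic subunit of protein kinase A, which phosphorylates CREB, and CREB drives early genes such as the Nr4a nuclear receptors. Phosphodiesterases break cAMP down and are themselves among the induced genes. LIF binds LIFR and gp130 and acts through JAK kinases and STAT3, which induces the feedback inhibitor Socs3; in neural stem cells the pathway is known for favouring self-renewal and astrocyte fate. Interferons are antiviral cytokines, and their target genes include antigen-presentation genes and a family of GTPases that act against microbes inside cells.

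Promoter sequence is shown for 3 genes of the interferon group and 2 of the cAMP group because the largest positive difference lay in the first and the added agent acts on the second. Each is the 250 bases before the gene's start in RefSeq, build GRCm38.p6, read 5′ to 3′ on the gene's strand. Capitals mark a pair of GAAA units with 2 bases between them, or the reverse complement, which is a core of the interferon-stimulated response element (ISRE), in Gbp2 (chr3:142620413-142620662, plus strand), Irgm2 (chr11:58214727-58214976, plus strand) and B2m (chr2:122147437-122147686, plus strand).
Gbp2: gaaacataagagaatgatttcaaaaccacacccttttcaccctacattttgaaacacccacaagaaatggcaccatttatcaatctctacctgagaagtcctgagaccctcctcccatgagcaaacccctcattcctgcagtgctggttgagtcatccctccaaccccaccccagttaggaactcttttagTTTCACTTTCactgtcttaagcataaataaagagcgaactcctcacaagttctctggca
Irgm2: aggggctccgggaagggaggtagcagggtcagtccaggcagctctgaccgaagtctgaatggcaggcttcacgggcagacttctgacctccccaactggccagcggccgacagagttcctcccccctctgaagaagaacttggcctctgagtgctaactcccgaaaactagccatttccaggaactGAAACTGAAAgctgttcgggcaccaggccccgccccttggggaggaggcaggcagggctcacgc
B2m: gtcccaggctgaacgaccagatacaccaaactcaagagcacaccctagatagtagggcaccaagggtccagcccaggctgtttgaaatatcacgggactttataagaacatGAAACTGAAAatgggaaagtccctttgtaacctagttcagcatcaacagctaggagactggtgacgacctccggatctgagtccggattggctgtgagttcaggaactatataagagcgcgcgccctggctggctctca
In the next pair, capitals mark TGACG, the short core bound by CREB, in Nr4a2 (chr2:57124004-57124253, minus strand), and TGACGTCA, the full palindromic cAMP response element, in Dusp1 (chr17:26508473-26508722, minus strand).
Nr4a2: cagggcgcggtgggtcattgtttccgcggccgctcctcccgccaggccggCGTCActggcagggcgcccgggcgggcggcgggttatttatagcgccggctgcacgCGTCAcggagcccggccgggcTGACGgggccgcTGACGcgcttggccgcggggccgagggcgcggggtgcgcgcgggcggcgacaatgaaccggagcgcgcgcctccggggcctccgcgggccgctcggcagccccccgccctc
Dusp1: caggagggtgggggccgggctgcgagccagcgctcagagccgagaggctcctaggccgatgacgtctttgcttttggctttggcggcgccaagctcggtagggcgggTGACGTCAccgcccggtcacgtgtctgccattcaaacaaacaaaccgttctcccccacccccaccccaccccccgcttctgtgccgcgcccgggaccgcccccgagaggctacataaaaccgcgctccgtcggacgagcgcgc
The first base of the match lay 59 bases before the start in Gbp2, 64 in Irgm2, 139 in B2m and 143 in Dusp1, and the matches in Nr4a2 lay 200, 144, 123 and 111 bases before it. Nr4a2 and Dusp1 show the short and the full element, and their values are given with the cAMP targets.

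Most genes had nearly the same signal in both media. Of the 7393 genes, 111 (1.5%) were at least 2-fold higher with LIF and cAMP and 77 (1.04%) at least 2-fold lower, together 2.54%, while 92.2% lay within 1.5-fold. The median difference was -0.0034 and the SD over genes 0.40, with a Pearson correlation of 0.949 across genes, which are not independent replicates. At least 4-fold differences numbered 27 higher and 10 lower. The filter lets a gene in through its higher array, and among the 6727 genes at 100 or more on both arrays 48 were higher and 25 lower. Where a gene had several passing probe sets, the brightest and the next differed from each other with an SD of 0.274 in their log2 difference, and the second probe set had the same sign in 31 of 31 genes past 2-fold and was itself past 2-fold in 21. In the other pairs of single arrays of the series that differ in line or medium, 7.36% (adult-derived), 15.7% (iPS against ES cells), 8.87% (their secondary neurospheres) and 13.5% (their primary neurospheres) of genes were past 2-fold in either direction. Among genes that passed with a mean signal under 100 the SD of the differences was 0.844, against 0.341 at 1000 or more. Such dim genes passed only where 1 array reached 100 and the other did not, so 0.844 does not measure scatter. Just outside the filter, with a higher signal of 80 to 100, 28 of 701 genes were past 2-fold, and just inside it, at 100 to 120, 27 of 620. The 3′ to 5′ signal ratio of Actb, a sign of RNA integrity, was 1.30 with LIF and 1.46 with LIF and cAMP, and that of Gapdh was 0.811 and 0.810. The part of RNA integrity in the results was not tested.

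**Figure D1:**
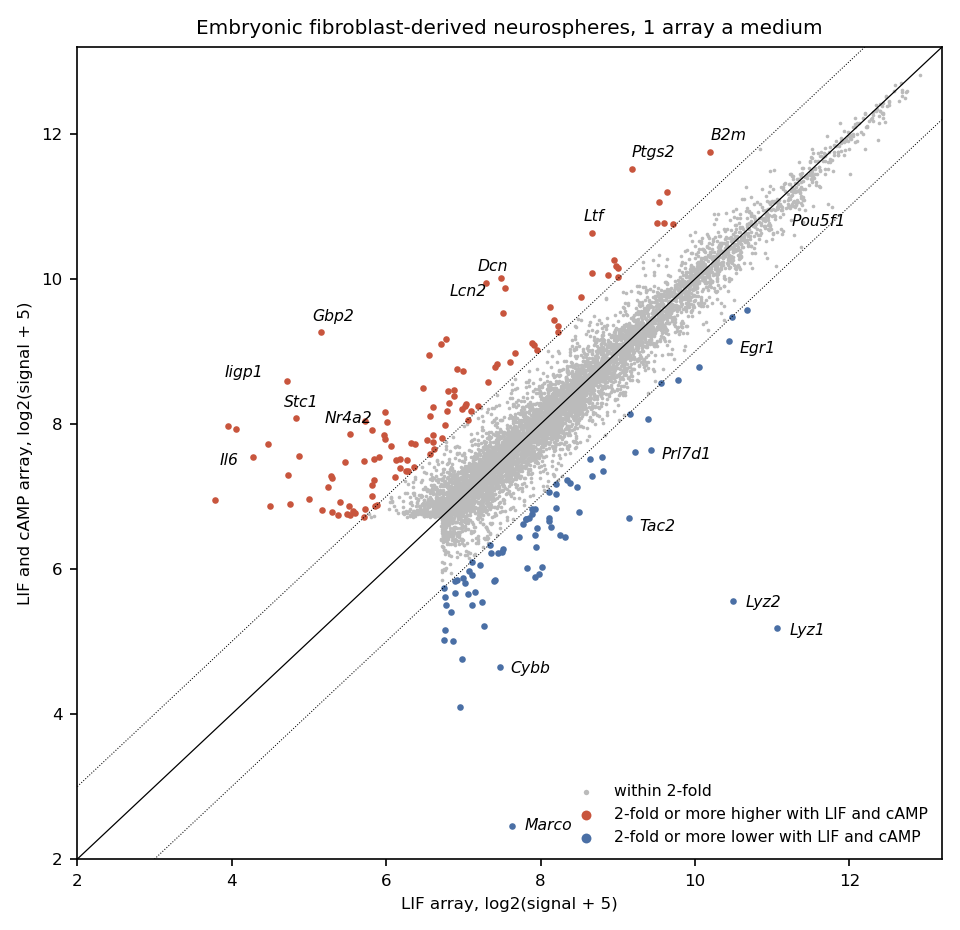
Each point is 1 of 7393 genes, with log2(signal + 5) on the LIF array on the x axis and on the LIF and cAMP array on the y axis; dotted lines mark 2-fold. The 111 red genes are at least 2-fold higher and the 77 blue genes at least 2-fold lower with LIF and cAMP, with Gbp2 and Lyz1 among the farthest from the diagonal.

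Many of the 111 higher genes were dimmer on the rest of the series. For 65 of them (58.6%) the LIF and cAMP array was the brightest of all 12, against 551 (7.45%) of all genes. Of the 77 lower genes, 31 (40.3%) were brightest on the LIF array, against 330 (4.46%) of all genes. The rule that sorts genes into higher and lower shapes both shares, so they describe where the rest of the series lay and nothing more.

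Fixed neural markers ranged from bright to dim in these spheres. Sox2, a transcription factor of neural and pluripotent stem cells, was at 1826 with LIF and 2092 with LIF and cAMP. Olig2, a ventral progenitor factor, was at 141 and 116. Nes, the intermediate filament of neural stem cells, stayed below the filter at 65.1 and 94.3 on its brightest probe set, as did Fabp7 of radial glia at 79.8 and 48.1 and Pax6 at 24.1 and 8.7. Some fixed markers of mature neural cells were also low, with Tubb3 of neurons at 60.8 and 39.7 and Gfap of astrocytes at 5.7 and 14.2. Mbp of oligodendrocytes passed the filter at 111 and 105. In the lists as a whole, 15 of 31 measured neural stem and radial glia genes passed, and 6 of 15 astrocyte genes. So did 5 of 15 oligodendrocyte-lineage and 5 of 27 neuronal genes, beside 7393 of all 18193 genes measured. The pluripotency factor Pou5f1 was at 2218 and 1981. The spheres are called here by their fibroblast origin and medium.

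Genes that cAMP and CREB are known to induce were at least 2-fold higher for a minority of the list. Of 50 listed genes 48 were measured and 23 passed the filter. Of the 23, 4 were at least 2-fold higher and 1 at least 2-fold lower, against 1.5% and 1.04% of all genes. Above 0 were 17 of the 23, against 3657 of the 7393 genes that passed. At 100 or more on both arrays were 18 of the 23. Among the 4 higher, Stc1 and Nr4a2 passed through the LIF and cAMP array alone, so that count supports nothing by itself. The median difference was 0.53 over the 23 and 0.25 over the 48, against -0.0034 over all genes that passed and 0.03 over all genes measured.

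The 4 higher genes were a secreted hormone, a nuclear receptor and 2 enzymes. Stc1, stanniocalcin, a secreted regulator of calcium and phosphate, had a signal of 23.6 with LIF and 267 with LIF and cAMP (3.25). Its other probe set stayed near the floor, at 3.9 and 1.2 (-0.52). Nr4a2, an orphan nuclear receptor induced directly by CREB and needed by dopamine neurons, was at 41.1 and 229 (2.34), and its other passing probe set gave 2.21, while 4 dimmer ones ranged from -0.93 to 1.49. Ptgs2, the inducible cyclooxygenase of prostaglandin synthesis, was at 576 and 2920.4 (2.33), with 2.66 on its other probe set. Ptgs2 was already bright with LIF alone, and adult fibroblasts had it at 2749.7. Pde4d, a cAMP-specific phosphodiesterase of the feedback loop, was at 295 and 615 (1.05).

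Several early genes were higher by less than 2-fold. Nr4a1, the paralog of Nr4a2, was at 454 and 848 (0.89), and Inhba, the activin A subunit, at 61.9 and 122 (0.92). Per1, a clock gene with a cAMP response element, was at 62.5 and 118 (0.87). Sik1, a kinase that restrains CREB coactivators, was at 87.6 and 133 (0.57), and Dusp1, a phosphatase of MAP kinases, at 329 and 492 (0.57). The SD of the differences over all genes with a mean signal of 100 to 200 was 0.408, and the spread between cultures is unknown.

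The other 25 measured targets stayed under the signal filter on both arrays, with 16 above 0, 5 past 2-fold higher and 0 lower. Crem, which encodes the repressor ICER, was at 34.6 and 73.4 (0.99), with 0.11 to 0.59 on its other probe sets. Pde4b, another phosphodiesterase, was at 15.4 and 50.8 (1.45), with -0.28 to 1.91 on its others, and Nr4a3, the last Nr4a receptor, at 10.6 and 52.5 (1.88). The scatter at signals this low was not measured. Genes with a higher signal of 80 to 100, brighter than these, had an SD of 0.460.

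Not all immediate-early genes were higher. Egr1, a zinc-finger factor driven by serum response and by CREB, was lower, at 1385 with LIF and 563 with LIF and cAMP (-1.29). Fos was at 680 and 586 (-0.21) and Junb differed by -0.11. Rgs16, an inhibitor of G-protein signalling, was at 215 and 119 (-0.83), but its other probe set gave 0.68, so its direction is not settled.

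**Figure D2:**
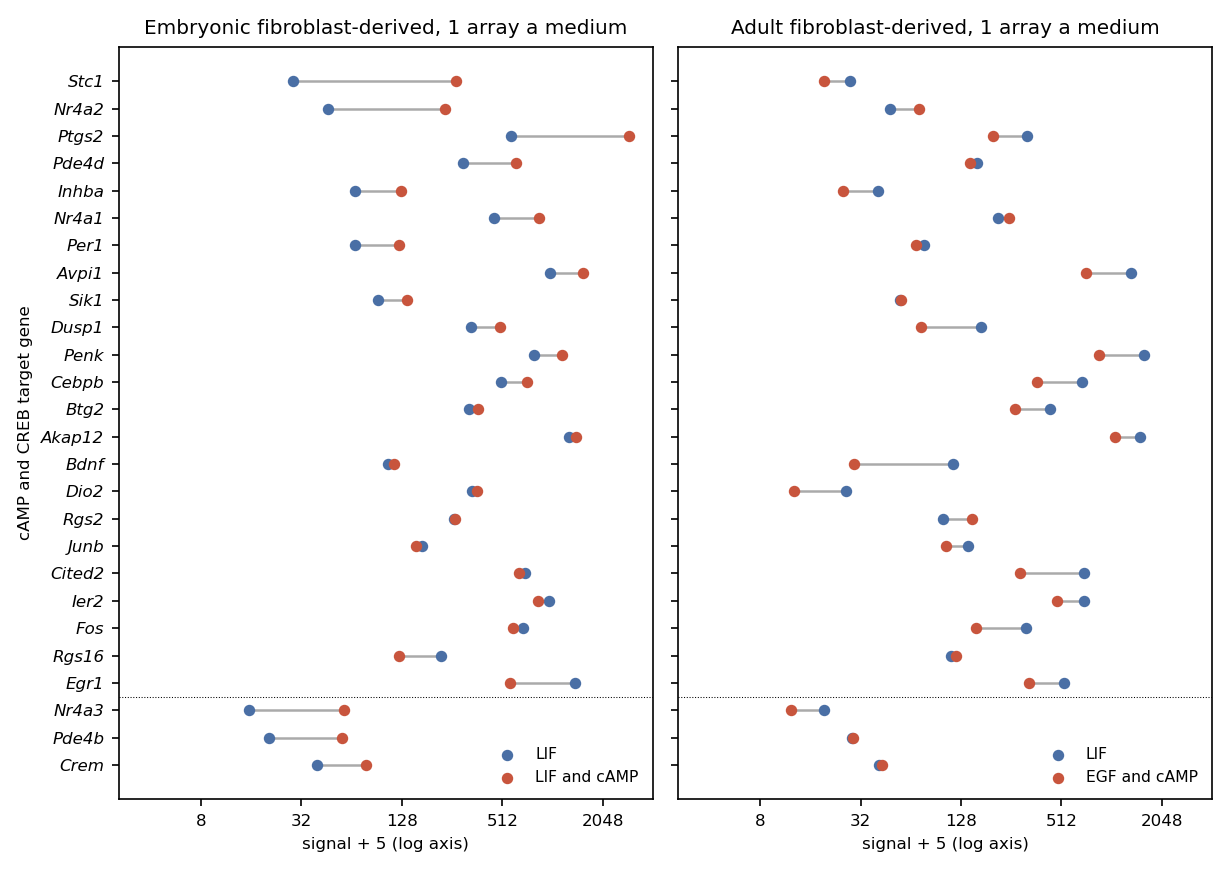
Signal + 5 on a log axis for the 23 cAMP and CREB targets that passed the filter and, under the dotted line, Crem, Pde4b and Nr4a3 that did not. The left panel shows embryonic-derived spheres with LIF (blue) and with LIF and cAMP (red), where Stc1, Nr4a2, Ptgs2 and Pde4d are 2-fold or more higher and Egr1 lower; the right panel shows the adult-derived pair, whose second medium held EGF and cAMP in place of LIF.

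The machinery of the pathway itself was nearly level. Of 44 listed cyclases, kinase subunits, phosphodiesterases and CREB factors 42 were measured and 21 passed, with 1 higher and 0 lower, beside 1.5% and 1.04% of all genes, and a median of -0.16. Pde8a, a cAMP-specific phosphodiesterase of high affinity, was at 78.2 and 206 (1.34). Pde3b was at 220 and 379 (0.77), while Prkaca, the catalytic subunit of protein kinase A, differed by -0.20 and Creb1 by -0.22.

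The full and the short cAMP element were counted upstream of these genes. The full TGACGTCA was found in the 250 bases before the start of 3 of the 17 passing targets that have a promoter in the table, Btg2, Dio2 and Dusp1, none of them past 2-fold. It is present upstream of 1.77% of all 27025 genes with a promoter and 3.18% of the 6092 that passed the filter. Each gene counted once, by a match in any of its promoters. TGACG, which the full element contains on both strands, was upstream of 11 of the 17. The share was 19.8% of all genes with a promoter and 33.0% of those that passed. Of the 93 genes 2-fold higher with a promoter 32.3% had it, and of the 60 genes 2-fold lower 16.7%. Among the higher targets with an entry only Nr4a2 held it, with the 4 matches printed above.

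The group with the most members higher was that of interferon response and MHC class I genes. Of 28 listed genes 26 were measured and 17 passed, with 10 at least 2-fold higher and 0 lower, beside 1.5% of all genes, and 17 of 17 above 0. The median was 1.21 over the 17 and 1.04 over the 26, against 0.03 over all genes measured. Only 7 of the 17 were at 100 or more on both arrays, 3 of them past 2-fold. The rest passed through the LIF and cAMP array alone, so the counts over the 17 support nothing by themselves. The signals of the list summed to 4644 with LIF and 11793 with LIF and cAMP. Over the same arrays the signals of 33 macrophage markers summed to 6936 and 3087, and their part in this result was not tested.

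Gbp2, a guanylate-binding protein that attacks the vacuoles of microbes, had the largest positive difference of all 7393 genes. Its signal was 30.7 with LIF and 614 with LIF and cAMP (4.12), with 3.46 on its other probe set, and the other 10 arrays had 0.2 to 131 with a median of 10.6. Other GTPases of the same kind, grouped after their values were seen, were higher as well. Of 18 genes 12 were measured and 8 passed, all 8 past 2-fold beside 1.5% of all genes, but only 1 was at 100 or more on both arrays and the other 7 passed through the LIF and cAMP array alone, so the count supports nothing by itself. Iigp1 was at 21.4 and 382 (3.87) and Gbp3 at 17.1 and 206 (3.25). Ifi47 was at 24.2 and 183 (2.69), and Irgm2 at 47.8 and 258 (2.31). Gbp7, Irgm1 and Igtp differed by 2.01, 1.82 and 1.66. The highest value of the other 10 arrays was 47.5 for Iigp1 and 70.7 for Irgm2, so both were brightest with LIF and cAMP.

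Antigen-presentation genes were higher too, some from bright levels and some from under 100 with LIF. Of 18 measured genes of a group of 20 made after values were seen, 10 passed and 6 of these were past 2-fold, beside 1.5% of all genes, with 5 of the 10 at 100 or more on both arrays. B2m, the light chain of MHC class I, was at 1169 and 3436 (1.55, other probe set 1.48), and the other 10 arrays ranged from 123 to 2639. The heavy chain genes H2-K1 and H2-D1 were at 739 and 2137 (1.52) and at 724 and 1746 (1.26). Their probe sets share sequence with other class I genes, and the other passing probe sets ranged from 1.17 to 3.01 and from 0.92 to 1.99, so the 2 genes cannot be told apart fully. Psmb8 and Psmb9, subunits of the immunoproteasome that cuts antigens, were at 51.6 and 237 (2.09) and at 34.4 and 148 (1.95). Tap1, which carries peptides into the endoplasmic reticulum, was at 52.5 and 145 (1.39), and Tapbp, which links it to class I chains, at 702 and 1094 (0.64).

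Antiviral effectors were also higher. Oasl2, of the oligoadenylate synthase family, was at 27.0 and 121 (1.97), Rsad2, viperin, at 67.8 and 164 (1.21), and Xaf1, a pro-apoptotic interferon target, at 71.2 and 159 (1.105). Irf1, the transcription factor that drives class I and GTPase genes, was at 161 and 293 (0.85), and Ifih1, a sensor of viral RNA, at 66.1 and 104 (0.62).

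The ISRE core lay upstream of 6 of the 7 passing GTPase genes that have a promoter in the table: Gbp2, Gbp3, Gbp7, Igtp, Irgm1 and Irgm2. It lay upstream of 5 of the 16 such genes of the interferon list, B2m, Bst2, Gbp2, Oas1a and Rsad2. Of the 93 genes 2-fold higher with a promoter 12.9% held it, and of the 60 genes 2-fold lower 8.33%. The share was 3.10% of passing genes and 3.46% of all genes with a promoter. TTCNNNGAA, the STAT core, was upstream of 3 of the 7 and 4 of the 16. It lay upstream of 8.60% of the genes 2-fold higher, 13.3% of those lower and 6.68% of passing genes. A match is a match of letters in this window and shows no binding.

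**Figure D3:**
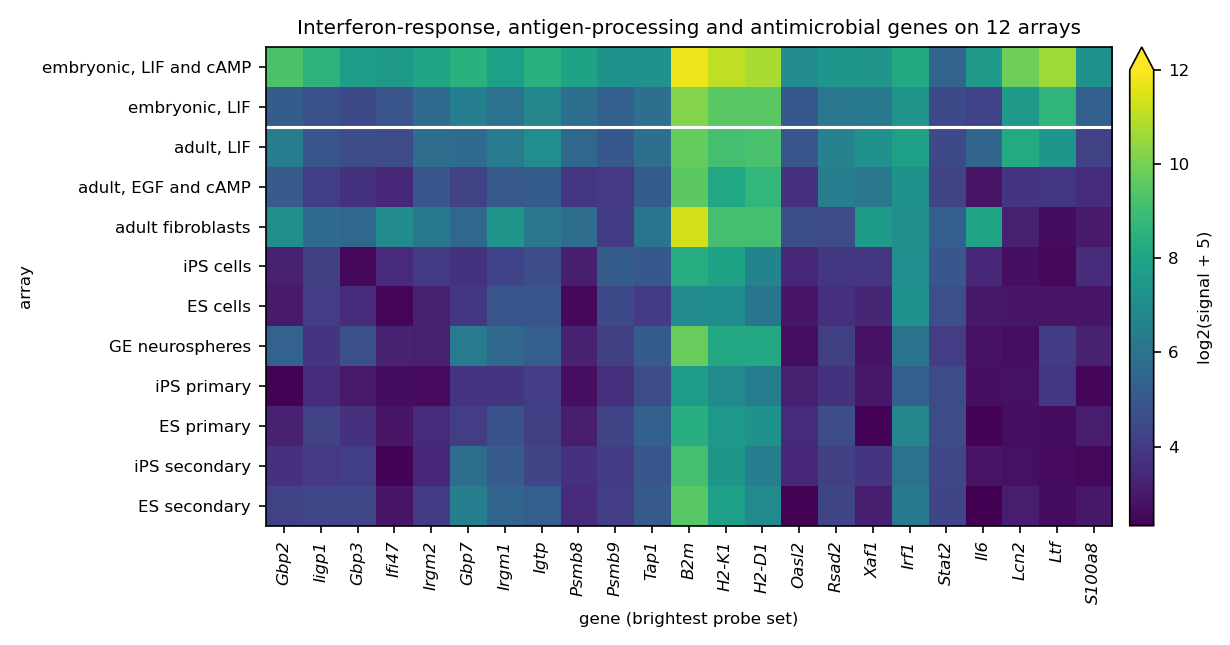
Colour gives log2(signal + 5) for interferon-response, antigen-processing and antimicrobial genes (columns, brightest probe set) on all 12 arrays (rows). The top row, embryonic-derived spheres with LIF and cAMP, is brighter than the row under it, LIF alone, from Gbp2 (614 against 30.7) to S100a8 (150.4 against 33.9). The columns are a selection, and Wfdc17 (74.3 against 240), the lower gene of the antimicrobial group, is not among them.

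Genes of the LIF and STAT3 pathway were mostly within 2-fold, and 3 secreted factors were past it. Of 34 listed genes 31 were measured and 22 passed, with 3 higher and 0 lower, beside 1.5% and 1.04% of all genes. Above 0 were 18 of the 22, against 3657 of the 7393 genes, and the median was 0.24. Socs3, the feedback inhibitor most tightly tied to STAT3, was at 1529 and 1822 (0.25), Stat3 at 596 and 679 (0.19) and Klf4, a LIF target and pluripotency factor, at 981 and 1051 (0.10), with -0.12 on its other probe set. LIF was in both media. No receptor gene was past 2-fold. Lifr was at 450 and 225 (-0.99) and Osmr, the oncostatin M receptor, at 507 and 303 (-0.74), while Il6st, the shared gp130 chain, differed by 0.26.

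The 3 higher members were Il6, Lcn2 and Clcf1. Il6, the cytokine interleukin 6, was at 14.3 and 183 (3.28), with adult fibroblasts at 246. Lcn2, lipocalin 2, which withholds iron from bacteria, was at 182 and 938 (2.33), and Clcf1, a cytokine of the same receptor family as LIF, at 40.9 and 112 (1.35). Among antimicrobial genes, a group added after values were seen, 9 of 13 passed with 3 higher, Lcn2 among them, and 1 lower, beside 1.5% and 1.04% of all genes. The lower gene was Wfdc17, at 240 and 74.3 (-1.63). Ltf, lactoferrin, was at 402 and 1578 (1.96) and S100a8, a calprotectin subunit, at 33.9 and 150.4 (1.998), whereas the acute-phase genes Saa1 and Saa3 differed by -0.28 and 0.32.

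Macrophage genes held the largest negative differences. Of 33 listed genes all 33 were measured and 11 passed, with 0 higher and 5 lower, beside 1.04% of all genes, a median of -0.91 over the 11 and -1.24 over the 33. Of the 11, 5 were at 100 or more on both arrays, and none of those 5 was past 2-fold. The 5 lower genes passed through the LIF array alone, so that count supports nothing by itself. The list's signals summed to 6936 with LIF and 3087 with LIF and cAMP, and to 1435 and 1207 on the adult-derived pair, 4887 in adult fibroblasts and 355 in GE neurospheres.

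Lyz1 and Lyz2 encode lysozyme and are near copies, so their probe sets may not fully separate them. Lyz1 was at 2137 and 31.3 (-5.88), with -5.46 on its other passing probe set. Its dimmest probe set was at 7.4 and 7.6 (0.02), near the floor on both arrays. Lyz2 was at 1434 and 42.3 (-4.93). The adult-derived spheres had Lyz2 at 22.7 with LIF and 11.0 with EGF and cAMP, and adult fibroblasts at 348. Cybb, the catalytic subunit of the phagocyte oxidase, was at 174 and 20.1 (-2.83). Ctss, a lysosomal protease of antigen-presenting cells, was at 254 and 60.4 (-1.99). Csf1r, the receptor that macrophages need to live, was at 221 and 59.8 (-1.80), with -1.08 and -0.44 on its dimmer probe sets.

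Several defining markers stayed under the filter on both arrays and were near 0 with LIF and cAMP. Tyrobp, a signalling adaptor of myeloid cells, was at 91.7 and 7.8, Ptprc, the pan-leukocyte CD45, at 41.1 and 5.8, Adgre1, the F4/80 antigen, at 53.6 and 11.8, and C1qa, of complement, at 17.4 and 0.4. The lower level did not extend to every member. Cd68, a lysosomal glycoprotein, was at 150.1 and 205 (0.44), Laptm5 at 113 and 135 (0.25), and Lgals3, a galectin that many cell types make, at 1213 and 1904 (0.65). Genes of macrophage receptors and proteases, grouped after values were seen, had 7 of 16 pass with 4 lower, beside 1.04% of all genes, and 2 above 0. None of the 7 was at 100 or more on both arrays, so each passed through its higher array alone. The 4 were Marco, a scavenger receptor, at 194 and 0.5 (-5.17), Clec4d at 119 and 12.1 (-2.86), Mmp9 at 112 and 27.3 (-1.86) and Mmp13 at 103 and 44.1 (-1.14). The part of macrophages in the other differences was not tested.

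Some placental genes were bright in both media. Of 28 listed genes 24 were measured and 10 passed, with 1 higher and 1 lower, beside 1.5% and 1.04% of all genes, and a median of 0.31 over the 10 and -0.01 over the 24. Tpbpa, a marker of the spongiotrophoblast layer of the placenta, was at 1325 and 687 (-0.94), with -1.67 on its other passing probe set. Plac1, a trophoblast membrane protein, was at 277 and 90.3 (-1.56), while Ctsj, a placental cathepsin, was at 510.4 and 1133 (1.14). The keratins Krt8 and Krt18 of simple epithelium were at 1016 and 1607 (0.66) and at 699.9 and 1222 (0.80).

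Prolactin-family hormones of the placenta, grouped after values were seen, had 5 of 17 measured genes pass and 3 of those lower, beside 1.04% of all genes. Prl7d1 was at 685 and 194 (-1.79), Prl6a1 at 244 and 89.6 (-1.40) and Prl2a1 at 1429 and 709.9 (-1.005), whereas Prl7b1 differed by -0.45 and Prl4a1 by 0.58. Their signals summed to 3299 with LIF, 1881 with LIF and cAMP and 37.3 on the adult-derived LIF array. In a group of other placental families made the same way 22 genes were measured and 8 passed, with 1 higher (Ctsj again), 3 lower, 1 above 0 and a median of -0.97. Among them Serpinb9g, a placental serpin, was at 247 and 56.3 (-2.04), and no other array exceeded 7.2. The labels name embryonic fibroblasts and no placental tissue. The part of these cells in the other differences was not tested.

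**Figure D4:**
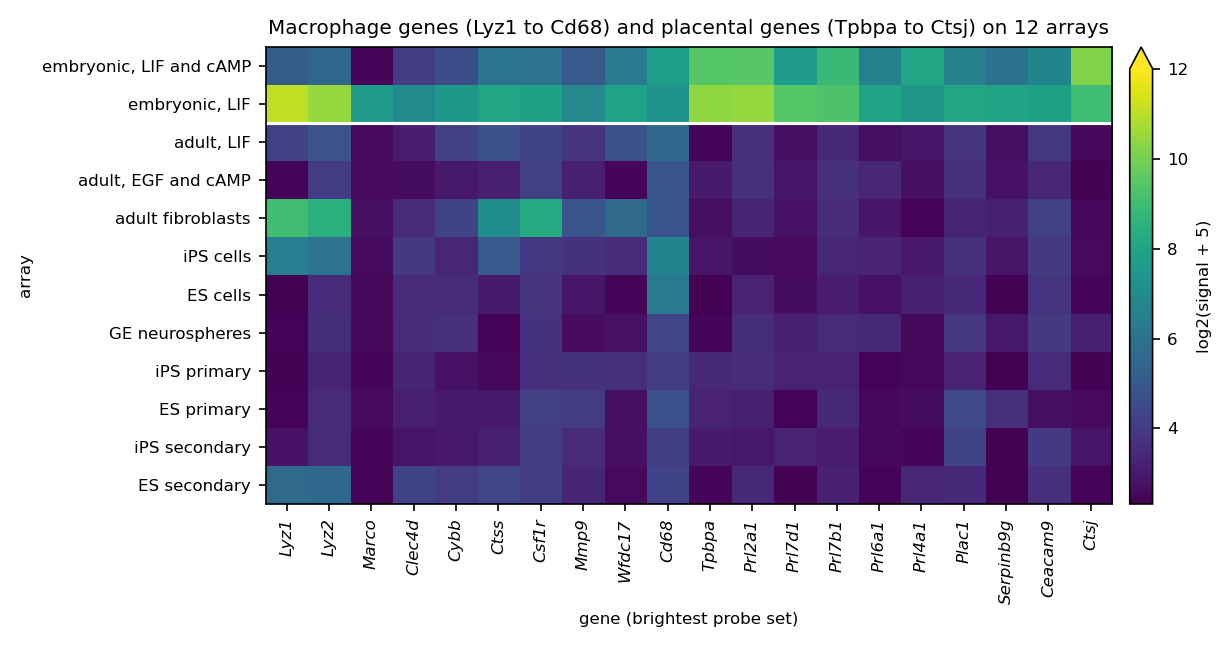
Colour gives log2(signal + 5) for macrophage genes (Lyz1 to Cd68) and placental genes (Tpbpa to Ctsj) on all 12 arrays. Lyz1 (2137 against 31.3), Lyz2 and Marco are bright with LIF (second row) and dim with LIF and cAMP (top row). Many of the placental genes shown are bright in both embryonic-derived rows and mostly dim elsewhere. Plac1 (90.3) and Serpinb9g (56.3) are under 100 with LIF and cAMP.

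Neural genes differed little, with a few exceptions. Of 34 listed neural stem and radial glia genes 31 were measured and 15 passed, with 2 higher and 0 lower, beside 1.5% and 1.04% of all genes, and a median of -0.22. Prom1, the stem cell surface protein CD133, was at 273 and 781 (1.501), and Tnc, a matrix glycoprotein of the stem cell niche, at 104 and 248 (1.22). Vim differed by -0.10, Olig1 by -0.57 and Hes1, a Notch target, by -0.65. Of 5 oligodendrocyte-lineage genes that passed 2 were higher, beside the same 1.5%. Ugt8a, which makes the myelin lipid galactosylceramide, was at 104 and 570.4 (2.40), and the GE neurospheres had it at 1893. Pdgfra, the receptor of oligodendrocyte precursors and of fibroblasts, was at 47.4 and 176 (1.79), while the myelin gene Mbp was at 111 and 105. None of the 5 neuronal and 6 astrocyte genes that passed was past 2-fold.

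The pluripotency list was level. Of 37 genes 34 were measured and 32 passed, with 0 past 2-fold in either direction, beside 2.54% of all genes. The median was 0.04 and the range -0.84 to 0.82. Pou5f1 differed by -0.16 and Nanog was at 1454 and 1845 (0.34). The list summed to 25206 with LIF and 25225 with LIF and cAMP. The genes of DNA replication and mitosis were alike, with 26 passing, 0 past 2-fold and a median of -0.07, as were 19 CDK inhibitor, cyclin D and p53 target genes with a median of 0.13. The 18 cholesterol synthesis, 22 unfolded protein and 22 heat shock genes that passed also held 0 past 2-fold. With 2.54% of all genes past 2-fold, a count of 0 in lists this short is near that share.

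Matrix and secreted signalling genes varied in both directions. Of 37 fibroblast and matrix genes 36 were measured and 27 passed, with 2 higher and 3 lower, beside 1.5% and 1.04% of all genes, and a median of -0.05. Dcn, the small matrix proteoglycan decorin, was at 151 and 978 (2.65), against 1048 on the adult-derived LIF array. Igfbp4, which binds insulin-like growth factors, was at 122 and 422 (1.75). Ccdc80, Col6a3 and Col1a1, matrix proteins of fibroblasts, were lower by differences of -1.33, -1.102 and -1.01. On a second, dimmer probe set Col1a1 differed by -0.31.

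Growth-factor genes were mainly ligands and their traps. Fst, follistatin, which binds activin, was at 100.2 and 545 (2.39, other probe set 2.74), and Grem1, a BMP antagonist, at 31.0 and 107 (1.64). Tgfb2 was at 166 and 52.7 (-1.57), and Id1, the usual reporter of BMP signalling, at 1444 and 832 (-0.79). Those belong to a list of 25 BMP and TGF-beta genes of which 15 passed, with 2 higher, 1 lower and a median of -0.28. In the EGF and ERK list 16 of 24 passed with 2 higher. All genes had 1.5% higher and 1.04% lower. The 2 were Ereg, the EGF-family ligand epiregulin, at 59.6 and 256 (2.01) and Ier3 at 768 and 1748 (1.18). Dkk2, a secreted Wnt inhibitor, was at 439 and 181 (-1.25), and 0 of the 7 Notch genes that passed was past 2-fold.

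**Figure D5:**
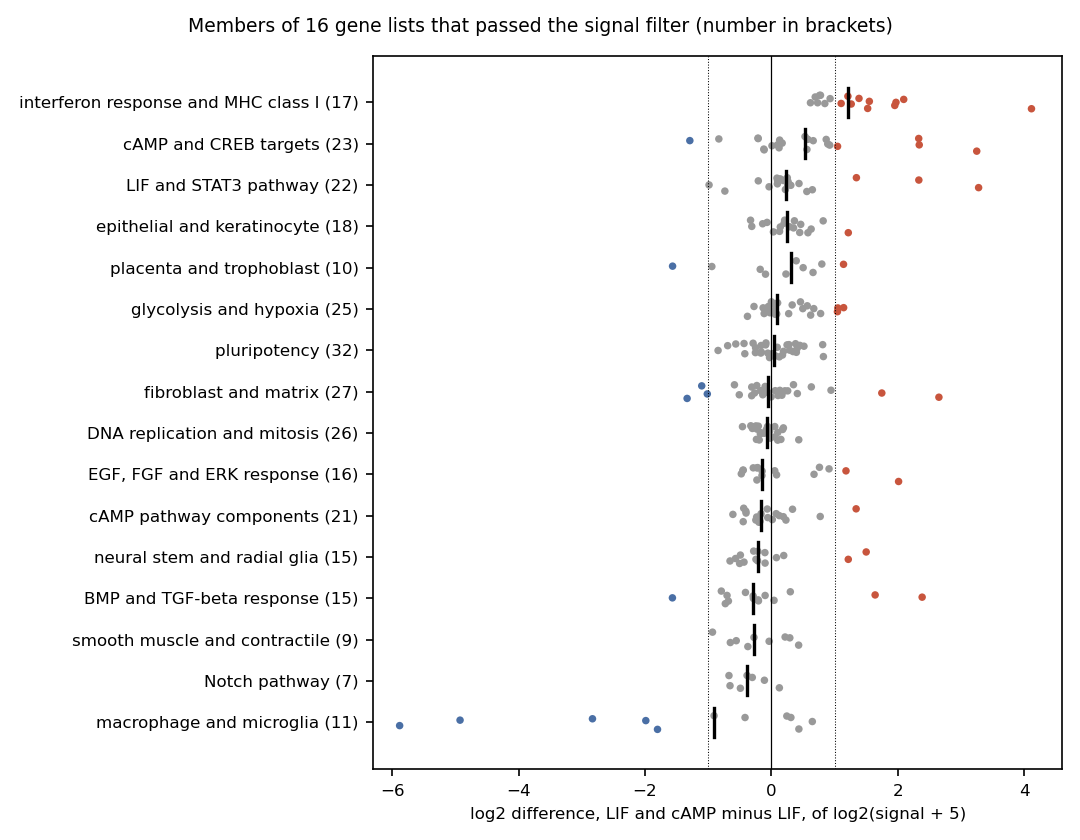
Each point is a gene of the named list that passed the filter, with its log2 difference, LIF and cAMP minus LIF, on the x axis; bars are list medians and dotted lines 2-fold. The interferon list sits to the right (median 1.21), the macrophage list to the left (-0.91), and most other lists centre near 0.

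The adult-derived pair differed in EGF and LIF as well as in cAMP, so its values stand beside these without a comparison. Ptgs2 was at 312 with LIF and 194 with EGF and cAMP, Nr4a2 at 43.1 and 66.4, Stc1 at 22.5 and 14.4, and Pde4d at 156 and 140.4. Gbp2 was at 80.3 and 29.1 and B2m at 842 and 759. Lcn2 was at 299 with LIF and 8.9 with EGF and cAMP, and Il6 at 39.9 and 2.1.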

How the data were processed

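RNA (Trizol extraction, biotin-labelled cRNA) was hybridised to Affymetrix arrays, per the labels. The intensity values deposited by the authors are linear signals. The submitters' processing notes name Affymetrix Expression Console 1.1 and MAS5, whose version is not given. Their 2%-trimmed mean was 100 on each array, which hides changes in total RNA. Of 45101 probe sets, 34945 named 1 gene symbol, 932 several, 9160 none and 64 were controls; symbols set against RefSeq genes of GRCm38.p6 changed in 0 cases.

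The authors' intensity was taken to log2(signal + 5) in Python 3.11.15 with pandas 2.3.3, numpy 2.4.6 and scipy 1.17.1, plotted with matplotlib 3.10.9 and tested on simulated data. Each medium had 1 array, so no test was run and the number of arrays limits the precision. Named genes are the 20 highest, the 20 lowest, members of 29 lists past 2-fold and fixed markers. Members and lists were chosen with earlier results of these data known; 6 gene groups and some further genes were named after their values were seen. Alternatives, 8 planned and 1 added, changed scaling, pseudocount, filter and probe set choice. Motifs were searched on both strands of RefSeq promoters.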

Additional observations from a re-analysis of the deposited data

How the results depend on the processing

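No paired analysis was possible because each medium had 1 array. The main counts were 111 genes higher, 77 lower, 5 cAMP targets, 10 interferon genes and 5 macrophage genes past 2-fold. A filter at 20 gave 242 higher, 205 lower, 10 cAMP targets and 16 macrophage genes. A filter at 200 gave 71 higher, 45 lower and 5 interferon genes, and every probe set on its own gave 16 interferon probe sets. At 100 on both arrays, an alternative chosen after seeing the data, the counts were 48 higher, 25 lower, 3 cAMP targets, 3 interferon genes and 0 macrophage genes. These filters alter which genes are counted by construction. No named gene past 2-fold changed sign under any of these alternatives; Klf4, at 0.10, became -0.01 with the mean of its probe sets and -0.12 on its other probe set. With a pseudocount of 20 Col1a1 (-0.88), Xaf1 (0.97) and Adm (0.93) came under 2-fold. Igfbp4 (0.92), Cldn3 (0.95) and H2-D1 (0.92) did so on 1 of their passing probe sets.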

Other observations

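Neuropeptide and hormone genes outside the lists differed in both directions; these were named after their values were seen or are among the 20 highest or lowest genes. Tac1, the precursor of substance P, had a signal of 58.6 with LIF and 283 with LIF and cAMP (2.18), while Tac2, that of neurokinin B, was at 560 and 99.1 (-2.44). Tac2 was also bright on the adult-derived arrays, at 935 with LIF and 513 with EGF and cAMP. Sct, the hormone secretin, was at 358 and 105 (-1.72). Slc17a6, a vesicular glutamate transporter, was at 103 and 27.6 (-1.73).

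Calb1, a calcium-binding protein, was at 8.8 and 119 (3.16), with 0.40 to 0.78 on its other probe sets, near the floor. The water channels Aqp1 and Aqp5 were at 52.5 and 178 (1.67) and at 57.6 and 225 (1.88). Mcpt8, a protease of basophils, was at 10.5 and 247 (4.02), and no other array exceeded 24.2. Pi15, a peptidase inhibitor, was at 11.6 and 240 (3.88), but its other probe set was at 13.5 and 31.7 (0.99). Hsd11b1, which activates glucocorticoids, was at 21.5 and 152 (2.56), and Igfbp5 at 175 and 1030 (2.52). A second Igfbp5 probe set was at 13.5 and 18.8 (0.36). Fgf7, a growth factor made by fibroblasts for epithelium, was at 17.5 and 112 (2.37). Hbb-y, an embryonic globin, was at 239 and 54.4 (-2.04), and Lpl, lipoprotein lipase, at 314 and 82.2 (-1.87). Of 25 glycolysis and hypoxia genes that passed, 3 were higher and 0 lower, beside 1.5% and 1.04% of all genes. Their median was 0.085. Ero1a, of protein folding, was at 838 and 1735 (1.05). Adm, at 77.1 and 165 (1.05), and P4ha2, at 92.6 and 211 (1.14), passed through the LIF and cAMP array alone.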
